A study of Mus musculus with 24 samples.

Results

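The genes described here are 8 chemokine receptors that steer lymphocytes to the gut, to lymphoid tissue and to inflamed sites: Ccr6, Ccr7, Ccr8, Ccr9, Cxcr3, Cxcr4, Cxcr5 and Cxcr6. They were taken by gene symbol from a bulk RNA-seq count table of 55487 genes, and all 8 passed the filter on low counts, among 21286 genes tested. The 24 libraries came from innate lymphoid cells (ILCs) sorted out of small-intestinal lamina propria of mice, with 3 libraries in each of 8 groups. DKO mice carried floxed Nr1d1 and Nr1d2 and a Cre recombinase under Vav1 control, which acts throughout the blood cell lineages and so in the other leukocytes of these mice too. WT mice were their littermates with the same floxed genes, and all animals were 8 to 12 weeks of age. The deleted genes make the paired REV-ERB proteins (REV-ERBα from Nr1d1, REV-ERBβ from Nr1d2), clock-linked nuclear receptors that act as transcriptional repressors. Each of 4 sorted populations, labelled ILC1, NKp46, CCR6 and DN, was taken from DKO and from WT mice. NKp46 and CCR6 are surface proteins encoded by Ncr1 and Ccr6. The sources used here do not explain the label DN.

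Chemokine receptors are G protein-coupled receptors through which a cell moves up a gradient of a secreted chemokine. CCR9 binds CCL25 made by the epithelium of the small intestine, CXCR6 binds CXCL16, and CXCR3 binds CXCL9, CXCL10 and CXCL11, which interferon induces. CCR6 (ligand CCL20), CXCR5 (ligand CXCL13) and CCR7 (ligands CCL19 and CCL21) place lymphoid tissue inducer-like ILC3 and B and T cells in intestinal lymphoid follicles and lymph nodes. CCR8 is known from regulatory T cells and type 2 lymphocytes, and CXCR4, the receptor of CXCL12, holds cells in the bone marrow and stroma.

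Total counts were 12763228 to 84395154 per library, and Spearman correlations between replicates were 0.889 to 0.968. Whether each library is a separate animal is not stated in the labels, and the p-values therefore reflect library-to-library spread, which may be technical. One library stands apart: WT ILC1 library 2 has the lowest total and 0 counts of Ccr7, Ccr8 and Cxcr5, so receptor results that it moves are also given without it. Nr1d1 was higher, not lower, in DKO libraries of all 4 populations (458 to 1772 CPM in DKO against 49.8 to 643 CPM in WT, CPM being counts per 1000000 counts of the library, TMM-scaled), and so was Nr1d2 in ILC1, CCR6 and DN. Counts per gene cannot show a deleted exon, so the direction of every DKO effect rests on the labels. The sorting gene Ncr1 was 735 to 937 CPM in WT NKp46 and at most 12.1 CPM in WT CCR6, and it was highest in WT ILC1 at 793 to 2029 CPM. Eomes, which marks natural killer cells, was 0 CPM in all 3 WT NKp46 libraries and at most 2.62 CPM in WT ILC1. The summed level of 9 T cell markers was highest in WT DN, as given below. Of them Cd3e was 558 to 591 CPM in WT DN and 10.2 to 97.1 CPM in the other WT groups, while Trbc1 was 395 to 426 CPM in WT DN, 422 to 513 CPM in WT ILC1 and 244 to 273 CPM in WT NKp46. Epithelial markers summed to at most 25.0 CPM in any library.

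DKO cells held less mRNA of the gut-homing receptor Ccr9 in NKp46 and DN, less Cxcr6 in NKp46, less Cxcr4 in CCR6, and more Ccr7 in NKp46. In a bulk sample, fewer cells that express a gene and less of its RNA per cell cannot be told apart. By edgeR's quasi-likelihood test at an adjusted p under 0.05, 3 of the 8 receptors differed between DKO and WT in NKp46, where 4.16% of all tested genes did (1 receptor and 1.99% of genes higher in DKO, 2 receptors and 2.17% lower). The CCR6 count was 1 of 8, lower in DKO, against 3.97% of all genes (1.93% higher, 2.04% lower). The DN count was also 1 of 8, lower in DKO, against 2.83% of all genes (1.49% higher, 1.34% lower). For ILC1 it was 0 of 8, against 1.06% of all genes (0.78% higher, 0.277% lower). In ILC1, 2 receptors had an unadjusted p under 0.05, Ccr6 (0.0104) and Cxcr4 (0.0323), and DESeq2 and limma voom also called 0 of 8. The share of all genes at an unadjusted p under 0.05 is not given here for any population, so such counts lack a background. The median of the 8 log2 fold changes was -0.69 for DN, -0.62 for CCR6, -0.23 for ILC1 and 0.20 for NKp46, beside -0.04 to 0 over all genes. Of the 8 values, 7 were below 0 in DN, beside 53.4% of all genes, 6 in CCR6 (51.7%), 6 in ILC1 (49.2%) and 3 in NKp46 (51.1%).

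**Figure D1:**
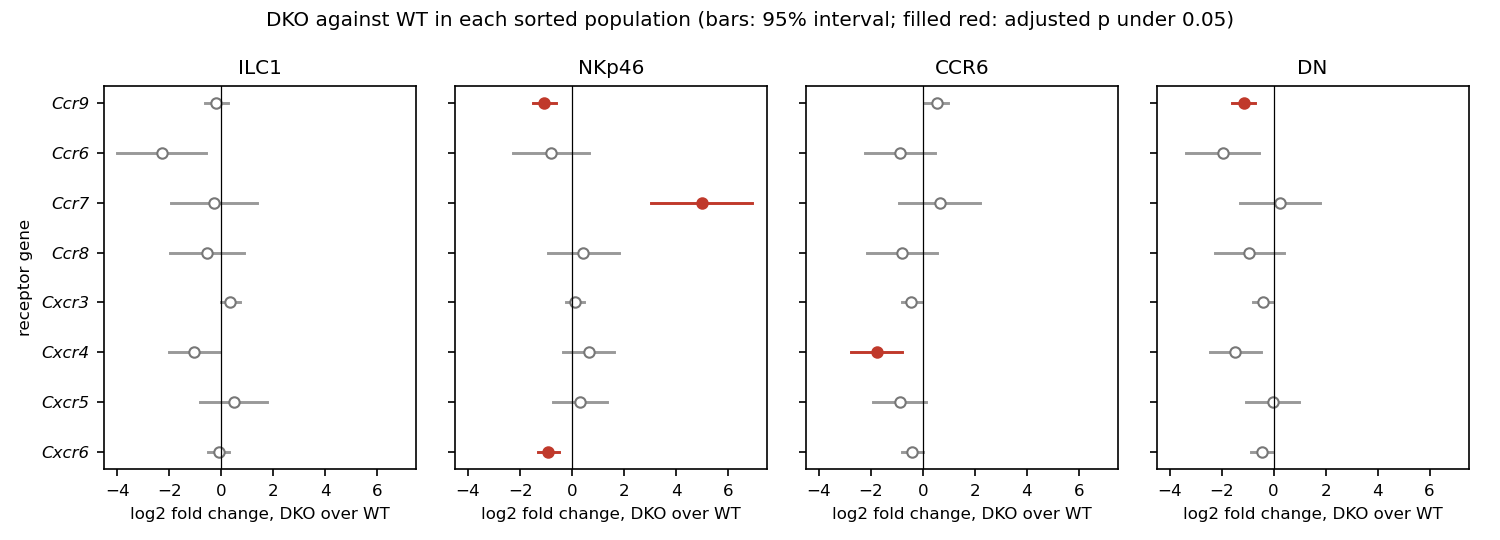
Log2 fold change of each receptor, DKO over WT, in the 4 sorted populations, with bars for the 95% interval of the fit and filled red points for an adjusted p under 0.05. The called differences are Ccr9, Ccr7 and Cxcr6 in NKp46, Cxcr4 in CCR6 and Ccr9 in DN, and Ccr7 in NKp46 (4.98) lies far to the right of the other points.

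Ccr9 (ENSMUSG00000029530; GRCm38 chromosome 9, 123678439 to 123784330, plus strand) was lower by about the same log2 amount in DKO NKp46 and DKO DN cells. In NKp46 it was at 315, 267 and 263 CPM in the DKO libraries, against 581, 612 and 573 CPM in the WT libraries. Every DKO library lay far below every WT library, and the log2 fold change was -1.06 ± 0.21 (SE, adjusted p = 0.00373). In DN the DKO libraries had 323, 207 and 276 CPM, against 599.9, 597 and 596 CPM in WT. Here too the groups were well apart, and the WT libraries were almost equal (log2 fold change -1.15 ± 0.21, adjusted p = 0.00195). Both differences passed the threshold under each of the 7 alternative settings and without any 1 of the 24 libraries.

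In CCR6 cells, where Ccr9 is scarce, the order was the other way. DKO libraries had 80.4, 63.8 and 83.1 CPM, against 33.0, 54.0 and 69.1 CPM in WT libraries. The groups overlapped and the log2 fold change of 0.54 ± 0.21 missed the threshold (adjusted p = 0.213). In ILC1 the values were 413, 445 and 402 CPM in DKO against 521, 335 and 579 CPM in WT, where library 2 is the low one (-0.19 ± 0.21, adjusted p = 0.745; without that library -0.39, adjusted p = 0.464). The DKO effect on Ccr9 differed among the 4 populations when tested jointly (adjusted p = 0.00596), as it did for 1.37% of all genes and for none of the other 7 receptors. It was 1.61 ± 0.30 higher in CCR6 than in NKp46 on the log2 scale (adjusted p = 0.0105, with 0.423% of all genes called). Against DN it was 1.69 ± 0.30 higher in CCR6 (adjusted p = 0.0194, with 0.127% of all genes called). The difference from DN missed the threshold without DKO CCR6 library 1 or 3, WT CCR6 library 2, DKO DN library 2 or 3 or any 1 WT DN library, with an adjusted p of at most 0.0861.

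Marker genes of other cell types moved with the Ccr9 result in DN. Of 9 T cell markers 7 were lower in DKO DN, and their summed level was 1319 to 1504 CPM in DKO against 2969.8 to 3146 CPM in WT. Of 6 ILC2 markers, 1 (Gata3) was lower, and the sum was 586 to 857 CPM in DKO DN against 1003 to 1308 CPM in WT DN. Most of that sum was Gata3, at 556 to 798 CPM in DKO DN against 928 to 1213 CPM in WT DN. Gata3 also averaged 406 to 487 CPM in the groups of the other populations. Il1rl1, Il5 and Il13 were at most 8.33, 9.44 and 3.80 CPM in any DN library. Klrg1 was 23.3 to 44.3 CPM in DKO DN against 62.6 to 69.2 CPM in WT DN. Areg was 0.653 to 3.50 CPM in DKO DN against 2.84 to 18.1 CPM in WT DN. The part of either list in the DN values of Ccr9 or of the other receptors was not tested. In NKp46, where the Ccr9 difference was as large, the summed T cell level was 710.1 to 801 CPM in DKO and 715 to 814 CPM in WT, with 1 of 9 markers called, higher. Most of that sum was Trbc1 and Trbc2, at means of 242 and 418 CPM in DKO NKp46 and 258 and 433 CPM in WT NKp46. The sum therefore says little about the scarcer markers. The myeloid list did move in NKp46, with 557 to 663 CPM in DKO against 923 to 988 CPM in WT and 1 of 6 markers called. The called gene was Fcer1g, which ILCs also express, at 552 to 656 CPM in DKO NKp46 against 914 to 971 CPM in WT NKp46. Lyz2 was 4.37 to 8.22 CPM in DKO NKp46 and 3.25 to 15.3 CPM in WT NKp46, and Csf1r, Flt3 and Adgre1 were at most 3.32 CPM in any NKp46 library. Markers that all ILCs share moved too, at a summed 2910.3 to 3120 CPM in DKO NKp46 against 5291 to 6049 CPM in WT NKp46, with 2 of 4 called lower (Id2 and Il7r). The same sum was 3436 to 3904 CPM in DKO DN against 5479 to 6513 CPM in WT DN (3 of 4 called lower) and 3739.7 to 3958 CPM in DKO CCR6 against 6187 to 6739.8 CPM in WT CCR6 (2 of 4 called lower). Ncr1 was 397 to 551 CPM in DKO NKp46 against 735 to 937 CPM in WT NKp46 (log2 fold change -0.83 ± 0.28, adjusted p = 0.109). The part of these genes in the receptor results was not tested.

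Cxcr6 (ENSMUSG00000048521; chromosome 9, 123806475 to 123811760, plus strand) begins 22144 bases past the annotated end of Ccr9, and it too was lower in DKO NKp46 cells. The DKO NKp46 libraries had 1329.9, 1259 and 1114 CPM, against 2461, 2292 and 2273 CPM in the WT libraries. The highest DKO library lay far below the lowest WT library (log2 fold change -0.92 ± 0.19, adjusted p = 0.00529), and the call held in all 7 alternatives and without any 1 library. In DN the values were 1320.1, 1300.4 and 1354 CPM in DKO against 1771, 1603 and 2064 CPM in WT. In CCR6 they were 1118, 987 and 1013.5 CPM in DKO against 1510.2, 1269 and 1335 CPM in WT. Neither pair of groups overlapped, but neither difference passed the threshold. DN cells had a log2 fold change of -0.45 ± 0.19 (adjusted p = 0.302), and CCR6 cells -0.40 ± 0.19 (adjusted p = 0.369). Without WT ILC1 library 2 both were called, at an adjusted p of 0.00508 in DN and 0.0121 in CCR6, as they were in fits of the compared groups alone (0.0307 and 0.0497). ILC1 cells had 1320.3, 1326 and 1286 CPM in DKO and 1742, 755 and 1708 CPM in WT, the 755 CPM being library 2 (log2 fold change -0.10 ± 0.19, adjusted p = 0.876; without that library -0.39, adjusted p = 0.0778). The DKO effect on Cxcr6 was not shown to differ among populations (joint adjusted p = 0.391). Per base of exon, Cxcr6 was the most abundant of the 8 receptors in every WT group, at 1213 ± 53.6 RPKM (CPM per kilobase of exon) in NKp46, 939 ± 121 in DN, 726 ± 290.2 in ILC1 and 710.1 ± 64.7 in CCR6 (SD, n = 3 each).

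The windows around the start sites of Ccr9 and Cxcr6 are shown because the receptors are neighbours and were lower together in DKO NKp46 cells. Each runs from 250 bases before to 50 bases after the start of a RefSeq transcript (GRCm38.p6, plus strand), chr9:123766961-123767260 for Ccr9 and chr9:123806227-123806526 for Cxcr6. Searched on both strands were the ROR response element, which REV-ERB proteins also bind, its core AGGTCA, the E-box CACGTG, the D-box as TTATGTAA or TTACGTAA, and the RUNX motif TGTGGT. The Ccr9 window held none of them. The Cxcr6 window held 1 RUNX match, in capitals, on the opposite strand 10 to 5 bases before the start, and 16.8% of the 32851 mouse windows searched hold that motif.

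Ccr9: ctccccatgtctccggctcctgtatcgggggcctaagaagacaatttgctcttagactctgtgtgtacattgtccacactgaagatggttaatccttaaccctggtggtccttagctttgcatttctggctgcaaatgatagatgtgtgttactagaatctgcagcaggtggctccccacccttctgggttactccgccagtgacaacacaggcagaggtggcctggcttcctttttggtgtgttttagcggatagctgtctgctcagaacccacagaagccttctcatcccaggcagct

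Cxcr6: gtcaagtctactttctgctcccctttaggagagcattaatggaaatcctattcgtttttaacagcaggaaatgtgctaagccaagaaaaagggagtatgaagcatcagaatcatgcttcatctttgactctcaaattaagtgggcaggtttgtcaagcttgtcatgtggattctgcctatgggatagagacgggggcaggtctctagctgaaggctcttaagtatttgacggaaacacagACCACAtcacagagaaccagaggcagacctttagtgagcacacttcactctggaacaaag

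Counts of Ccr9 need a caution on their source. Its annotated exons together span 10260 bases, against 1175 to 3332 bases for the other 7 receptors, so its RPKM is set low. They share 1932 bases with the predicted gene Gm17021 on the opposite strand, 269 bases with Gm17200 on the same strand and 22 bases with Slc6a20a on the opposite strand. How the counting treated strand is not given in the sources used here, so reads of these genes cannot be separated from those of Ccr9. Cxcr5 shares 110 bases with Bcl9l on the opposite strand. The other 6 receptors share 0 exon bases with another gene.

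Ccr7 (ENSMUSG00000037944; chromosome 11, 99144196 to 99155077, minus strand), the receptor for entry into lymph nodes and their T cell zones, was higher in DKO NKp46 cells. The DKO NKp46 libraries had 7.87, 9.71 and 0.905 CPM, against 0.0613, 0.247 and 0.261 CPM in WT. In counts that was 223, 271 and 23 reads in DKO against 2, 12 and 8 reads in WT. Library 3 lay well below the other DKO libraries, yet no DKO library overlapped the WT range (log2 fold change 4.98 ± 0.92, adjusted p = 0.00195). The call held without any 1 of the 24 libraries (adjusted p at most 0.0196) and was lost with limma voom (4.58, adjusted p = 0.0653). T cell markers moved with it in part: 1 of 9, Trac, was called higher (14.8 to 31.7 CPM in DKO NKp46 against 4.59 to 14.2 CPM in WT NKp46), and Cd3e had 16.3 to 32.9 CPM in DKO against 10.2 to 15.1 CPM in WT. The summed T cell level, given above and mostly Trbc1 and Trbc2, overlapped between the genotypes. The part of T cells in the Ccr7 result was not tested.

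In the other populations Ccr7 overlapped between genotypes. CCR6 libraries had 18.5, 18.6 and 15.6 CPM in DKO and 19.7, 6.32 and 7.71 CPM in WT (log2 fold change 0.64 ± 0.73, adjusted p = 0.861). DN libraries had 12.6, 6.84 and 7.29 CPM in DKO and 11.8, 3.998 and 6.73 CPM in WT (0.24 ± 0.73, adjusted p = 0.967). ILC1 libraries had 0.987, 0.896 and 0.799 CPM in DKO and 2.23, 0 and 0.838 CPM in WT (-0.28 ± 0.79, adjusted p = 0.923; without WT library 2 -0.77, adjusted p = 0.72). The DKO effect in ILC1 minus that in NKp46 was -5.26 ± 1.19 on the log2 scale (adjusted p = 0.0455, with 0.559% of all genes called). That call held in 4 of 24 fits that left out 1 library, with an adjusted p of up to 0.117 in the others, and was lost with limma voom (0.524) and with no filter (0.0887). The joint test over populations missed the threshold for Ccr7 (adjusted p = 0.0618) and passed it without WT ILC1 library 2 (adjusted p = 0.00868). Without that library the effect was also called lower than in NKp46 for CCR6 (-4.33, adjusted p = 0.0248) and for DN (-4.73, adjusted p = 0.0154).

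Ccr6 (ENSMUSG00000040899; chromosome 17, 8236043 to 8257141, plus strand) was a sorting marker, so its levels across populations describe the sort. Its genotype differences were likewise measured in cells chosen by that marker, and Ccr6 was kept in the genotype counts and medians of the 8 receptors. In CCR6 cells the DKO libraries had 882, 702 and 714 CPM, against 1306, 1476 and 1417 CPM in WT. In DN the DKO libraries had 8.22, 12.8 and 10.6 CPM, against 39.8, 41.8 and 40.6 CPM in WT. The genotypes were well apart in both populations. With the spread shared over all 8 groups neither difference passed the threshold, at -1.95 ± 0.66 for DN (adjusted p = 0.156) and -0.87 ± 0.64 for CCR6 (adjusted p = 0.687). Fits of the compared groups alone called both (adjusted p = 0.0011 in CCR6 and 0.000529 in DN), and so did limma voom (8.49e-05 and 0.0033). The shared fit includes ILC1 and NKp46 libraries, in which Ccr6 varied more: 5.43, 0.716 and 6.85 CPM in DKO NKp46 against 3.98, 12.3 and 6.30 CPM in WT NKp46, and 1.30, 1.32 and 0.295 CPM in DKO ILC1 against 9.84, 0.0804 and 2.31 CPM in WT ILC1. Neither NKp46 (-0.82 ± 0.69, adjusted p = 0.629) nor ILC1 (-2.28 ± 0.81, adjusted p = 0.225, and 0.103 without WT library 2) was called. The T cell marker sum was 703 to 776 CPM in DKO CCR6 and 754 to 903 CPM in WT CCR6. In DN that sum was 1319 to 1504 CPM in DKO against 2969.8 to 3146 CPM in WT, with 7 of 9 markers called lower. The part of T cell markers in the Ccr6 values was not tested in either population.

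The start-site window of Ccr6 is shown because it was the only one of the 7 receptor windows searched that held a ROR response element. Those windows, which include another Ccr6 window, cover 6 of the 8 receptors. No window was found for Ccr7 and Cxcr5, so their start sites were not searched. The window shown is RefSeq window chr17:8235793-8236092 (GRCm38.p6, plus strand). Capitals mark a run 44 to 29 bases before the start, in which the ROR response element (TGACCTAGTTA as read on the gene's strand, 44 to 34 bases before the start) overlaps a match to the D-box TTATGTAA on the opposite strand (36 to 29 bases before the start). The element contains the core AGGTCA, also on the opposite strand. The second run of capitals is a RUNX match from 30 bases after the start. Of the 32851 windows, 0.384% hold the ROR response element, 16.3% its core, 0.938% this D-box and 16.8% the RUNX motif. A match describes letters only.

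Ccr6: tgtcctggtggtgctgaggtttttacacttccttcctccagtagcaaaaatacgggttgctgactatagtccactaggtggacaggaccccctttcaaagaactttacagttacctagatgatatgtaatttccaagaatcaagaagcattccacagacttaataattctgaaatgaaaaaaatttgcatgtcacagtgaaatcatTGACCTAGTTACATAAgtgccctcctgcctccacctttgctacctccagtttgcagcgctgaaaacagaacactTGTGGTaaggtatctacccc

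Cxcr5 (ENSMUSG00000047880; chromosome 9, 44511787 to 44561877, minus strand), the receptor for lymphoid follicles, was measured at 159.7, 139 and 119 CPM in DKO CCR6 libraries, against 268, 241 and 265 CPM in WT CCR6 libraries. The groups did not overlap, and the difference of -0.89 ± 0.48 missed the threshold in the shared fit (adjusted p = 0.474) and passed it in the fit of these groups alone (0.00143) and with limma voom (0.000947). In DN the genotypes coincided, with 73.2, 70.6 and 55.9 CPM in DKO and 73.5, 68.7 and 62.3 CPM in WT. That difference was -0.03 ± 0.48, with a 95% interval of -1.05 to 0.98. NKp46 libraries had 27.2, 22.8 and 14.2 CPM in DKO and 22.6, 20.5 and 9.01 CPM in WT (0.30 ± 0.49, adjusted p = 0.849). In ILC1 it was 1.12, 3.22 and 0.625 CPM in DKO and 2.52, 0 and 0.635 CPM in WT (0.47 ± 0.60, adjusted p = 0.783; without WT library 2 0.09, adjusted p = 0.988).

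Cxcr4 (ENSMUSG00000045382; chromosome 1, 128588199 to 128592293, minus strand), the CXCL12 receptor, was lower in DKO CCR6 cells. The DKO CCR6 libraries had 3.39, 3.96 and 4.12 CPM, against 15.7, 14.4 and 9.25 CPM in WT. The DKO values were tight and all below the WT values (log2 fold change -1.78 ± 0.47, adjusted p = 0.0294). All 7 alternatives kept this call, but it was lost without any 1 DKO CCR6 library or without WT CCR6 library 1 or 2 (adjusted p = 0.0935 to 0.138). DN cells had 3.88, 3.31 and 1.90 CPM in DKO against 11.9, 9.17 and 4.102 CPM in WT, close to each other but without overlap. That difference was -1.47 ± 0.47 and missed the threshold (adjusted p = 0.11), while DESeq2 called it (adjusted p = 0.0379). ILC1 libraries had 17.3, 19.5 and 15.3 CPM in DKO and 34.8, 56.3 and 16.4 CPM in WT, the highest being library 2 (-1.04 ± 0.46, adjusted p = 0.325; without it -0.56, adjusted p = 0.689). NKp46 was the one population with a positive value, with 8.61, 6.16 and 3.42 CPM in DKO and 5.48, 4.42 and 1.76 CPM in WT (0.64 ± 0.46, adjusted p = 0.547). The joint test did not show that the Cxcr4 effect differed among populations (adjusted p = 0.172). DESeq2 (0.0284) and the fit with no filter (0.00475) put it past the threshold. Genes on the marker lists of other cell types moved with the CCR6 results too. The summed B cell and plasma cell list was 40.5 to 55.7 CPM in DKO CCR6 against 99.2 to 196 CPM in WT CCR6, with 1 of 4 tested genes, Cd79b, called lower. Jchain, a plasma cell gene, was 4.66 to 15.4 CPM in DKO CCR6 against 8.78 to 96.5 CPM in WT CCR6. Ms4a1 and Pax5 were at most 0.458 and 0.0384 CPM in any CCR6 library. The summed myeloid list was 504 to 640 CPM in DKO CCR6 against 882 to 1141 CPM in WT CCR6, with 2 of 6 called lower, Itgax and Fcer1g. Most of that sum was Fcer1g, which ILCs also express, at 494 to 634 CPM in DKO CCR6 against 857 to 1128 CPM in WT CCR6. Lyz2 was at most 12.4 CPM, and Itgax, Csf1r, Flt3 and Adgre1 were at most 6.56 CPM, in any CCR6 library. The part of either list in the CCR6 values of Cxcr4, Cxcr5 and Ccr6 was not tested.

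Cxcr3 (ENSMUSG00000050232; chromosome X, 101731535 to 101734269, minus strand), the receptor of type 1 lymphocytes, differed little between genotypes. ILC1 libraries had 365, 307 and 305 CPM in DKO and 294, 188 and 287 CPM in WT (0.34 ± 0.17, adjusted p = 0.378; without WT library 2 0.17, adjusted p = 0.736). NKp46 libraries had 264, 227 and 236 CPM in DKO and 222, 239.5 and 211 CPM in WT (0.11 ± 0.17, with a 95% interval of -0.25 to 0.47). DN libraries had 132, 119 and 128 CPM in DKO against 156, 162 and 189 CPM in WT. They did not overlap, but the difference of -0.42 ± 0.17 was not called (adjusted p = 0.265). CCR6 libraries had 24.5, 16.5 and 20.5 CPM in DKO and 33.5, 28.1 and 21.9 CPM in WT (-0.44 ± 0.17, adjusted p = 0.21).

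Ccr8 (ENSMUSG00000042262; chromosome 9, 120092114 to 120094906, plus strand) was highest in DN libraries. DN libraries had 42.1, 21.7 and 39.4 CPM in DKO against 66.6, 76.5 and 53.8 CPM in WT. No DKO library reached the WT range, and the difference of -0.93 ± 0.63 was not called (adjusted p = 0.645, 95% interval -2.26 to 0.39). In the other populations Ccr8 was 0.764 to 6.88 CPM in DKO and 0 to 8.95 CPM in WT. The log2 fold change was -0.80 ± 0.63 for CCR6 (adjusted p = 0.732) and 0.43 ± 0.64 for NKp46 (adjusted p = 0.829). For ILC1 it was -0.56 ± 0.66 (adjusted p = 0.766), and -1.08 (adjusted p = 0.397) without WT library 2, the one with 0 counts.

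**Figure D2:**
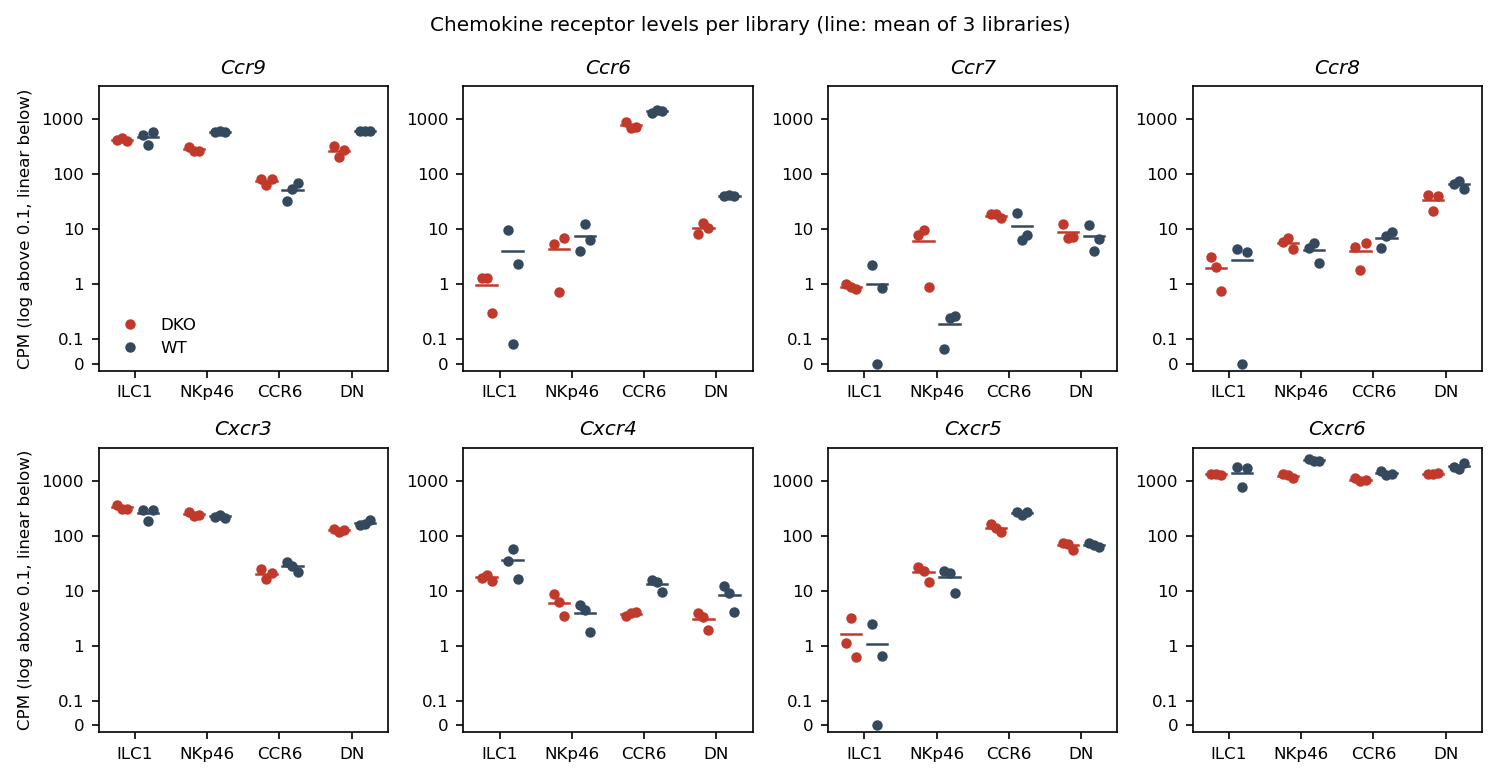
Level of each receptor in CPM in each library (points), with DKO in red left of WT in dark blue in each population and a line at the mean of 3 libraries. The axis is logarithmic above 0.1 CPM and linear below. Ccr9 and Cxcr3 are lowest in CCR6 cells, Cxcr5 and Ccr6 highest there, Ccr8 is highest in DN cells, and Ccr7 in DKO NKp46 lies between 0.905 and 9.71 CPM, above all 3 WT NKp46 points.

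The WT populations were also compared with each other. Ccr6 is left out of the counts that follow, since it was used for sorting. Between CCR6 and NKp46, 6 of the other 7 receptors differed, where 6.23% of all genes did (2.82% higher in CCR6, 3.41% lower). Ccr7 and Cxcr5 were higher in CCR6 (log2 fold change 5.85 ± 0.95 and 3.89 ± 0.54) and so was Cxcr4 (1.75 ± 0.47, adjusted p = 0.0235). Ccr9, Cxcr3 and Cxcr6 were lower (-3.50 ± 0.23, -3.01 ± 0.18 and -0.77 ± 0.19). Cxcr4 was lost without WT CCR6 library 1 or 2 or WT NKp46 library 2 or 3 (adjusted p at most 0.138), and Cxcr6 without WT CCR6 library 2 or 3 or WT NKp46 library 1 (at most 0.0857). Between CCR6 and DN, 4 of 7 differed, against 5.84% of all genes (1.95% higher in CCR6, 3.89% lower). Cxcr5 was higher in CCR6 (1.92 ± 0.49, adjusted p = 0.0201), and Ccr9 (-3.52 ± 0.23), Ccr8 (-3.22 ± 0.68) and Cxcr3 (-2.60 ± 0.18) were lower. Here Cxcr5 was lost without any 1 of the 6 libraries compared (adjusted p = 0.0524 to 0.0847), and Cxcr6 was called without WT ILC1 library 2 (-0.41, adjusted p = 0.00754). Other cell types' markers moved with this comparison. T cell markers summed to 754 to 903 CPM in WT CCR6 against 2969.8 to 3146 CPM in WT DN (8 of 9 lower), and ILC2 markers to 454 to 518 CPM in WT CCR6 against 1003 to 1308 CPM in WT DN (6 of 6 lower). Their part was not tested.

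WT DN and WT NKp46 differed in 3 of the 7, against 2.97% of all genes (2.25% higher in DN, 0.723% lower), and all 3 were higher in DN. These were Ccr7 (5.27 ± 0.93), Ccr8 (3.97 ± 0.70) and Cxcr5 (1.97 ± 0.50, adjusted p = 0.0295). Cxcr5 was lost without any 1 of the 6 libraries compared (adjusted p = 0.0543 to 0.181). Cxcr6 was called lower in DN without WT ILC1 library 2 (-0.36, adjusted p = 0.0283; -0.37 and 0.411 with it). Ccr9 was level between them, at a log2 difference of 0.02 ± 0.21 (95% interval -0.42 to 0.46). The T cell markers, 8 of 9 of which were higher in WT DN than in WT NKp46, moved with these differences, at a summed 2969.8 to 3146 CPM in WT DN against 715 to 814 CPM in WT NKp46, and their part was not tested.

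WT ILC1 cells had the highest mean Cxcr4 and the lowest mean Cxcr5 of the WT populations. Against NKp46, 3 of 7 receptors differed in ILC1, where 10.7% of all genes did (5.13% higher in ILC1, 5.6% lower). Cxcr4 was higher (3.20 ± 0.49), and Cxcr5 (-3.88 ± 0.59) and Cxcr6 (-0.74 ± 0.19, adjusted p = 0.0131) were lower. Without library 2 those values were 2.72, -3.50 and -0.43, all still called, and Ccr7 was called as well (2.97, adjusted p = 0.0175). Cxcr6 was lost without WT NKp46 library 1 (adjusted p = 0.0608). Against CCR6, 5 of 7 differed, where 19.3% of all genes did (9.33% higher in ILC1, 9.99% lower). Ccr9 (3.20 ± 0.23), Cxcr3 (3.21 ± 0.18) and Cxcr4 (1.44 ± 0.46) were higher in ILC1, and Ccr7 (-3.37 ± 0.82) and Cxcr5 (-7.77 ± 0.67) were lower. Without library 2 the Cxcr4 difference was 0.96 and no longer called (adjusted p = 0.181). It was also lost without WT ILC1 library 1 or any 1 WT CCR6 library (at most 0.132), and Cxcr6 was called without library 2 (0.33, adjusted p = 0.0308). Against DN, 5 of 7 differed, where 7.61% of all genes did (2.88% higher in ILC1, 4.73% lower). Cxcr4 (2.09 ± 0.47) and Cxcr3 (0.60 ± 0.17) were higher in ILC1, and Ccr8 (-4.52 ± 0.73), Cxcr5 (-5.85 ± 0.62) and Ccr7 (-2.79 ± 0.80) were lower. Without library 2 Ccr7 was not called (-2.30, adjusted p = 0.0698), and the other 4 were (Cxcr4 1.61, adjusted p = 0.0389). Ccr7 was also lost without WT ILC1 library 3 or WT DN library 1 or 3 (at most 0.131), and Cxcr4 without WT DN library 3 (0.0509). Cxcr3 was lost without any 1 of 11 libraries, most strongly without WT DN library 1 (0.155). Without library 2 the Cxcr5 difference was -7.39 from CCR6 and -5.47 from DN, both called. In fits of the compared groups alone, Cxcr4 was not called against CCR6 (adjusted p = 0.0968) or DN (0.102). Those fits also did not call Cxcr5 (0.0998) or Cxcr6 (0.258) against NKp46. Ccr7 was lost there against CCR6 (0.0983) and DN (0.311), and Cxcr3 against DN (0.225). Markers of other cell types moved with all these comparisons. T cell markers summed to 1188 to 1520.5 CPM in WT ILC1. That sum was 715 to 814 CPM in WT NKp46 (6 of 9 higher in ILC1) and 754 to 903 CPM in WT CCR6 (4 of 9 higher). In WT DN it was 2969.8 to 3146 CPM (7 of 9 lower in ILC1). Myeloid markers summed to 1272 to 1588 CPM in WT ILC1. Their sum was 923 to 988 CPM in WT NKp46 (2 of 6 higher in ILC1) and 882 to 1141 CPM in WT CCR6 (2 higher, 1 lower). In WT DN it was 594 to 640 CPM (4 of 6 higher in ILC1). The part of either list was not tested.

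Ordered by WT mean level, Ccr9 ran DN (597 ± 2.27 CPM), NKp46 (589 ± 20.6), ILC1 (478 ± 127) and CCR6 (52.0 ± 18.1), and none of the first 3 was called different from another. Cxcr3 ran ILC1 (256.5 ± 59.2 CPM), NKp46 (224 ± 14.2), DN (169 ± 17.3) and CCR6 (27.8 ± 5.82), with neighbours ILC1 and NKp46, and NKp46 and DN, not called different. Cxcr6 ran NKp46 (2342 ± 103 CPM), DN (1812.5 ± 234), ILC1 (1401 ± 560.3) and CCR6 (1371 ± 125), and no neighbours in that order were called different, except NKp46 and DN, and ILC1 and CCR6, in the fit without WT ILC1 library 2. Cxcr5 ran CCR6 (258 ± 14.5 CPM), DN (68.2 ± 5.61), NKp46 (17.4 ± 7.32) and ILC1 (1.05 ± 1.31), each called different from the next. Ccr7 ran CCR6 (11.3 ± 7.38 CPM), DN (7.52 ± 3.98), ILC1 (1.02 ± 1.12) and NKp46 (0.190 ± 0.111), with CCR6 and DN, and ILC1 and NKp46, not called different. For Cxcr4 the order was ILC1 (35.8 ± 20.0 CPM), CCR6 (13.1 ± 3.44), DN (8.39 ± 3.96) and NKp46 (3.89 ± 1.92), of which only ILC1 and CCR6 were called different as neighbours. Ccr8 was highest in DN (65.6 ± 11.4 CPM) and was 7.02 ± 2.27 in CCR6, 4.18 ± 1.62 in NKp46 and 2.72 ± 2.37 in ILC1, the last 3 not called different from each other (SD, n = 3 throughout).

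Across all 24 libraries Ccr9 and Cxcr3 had the most alike patterns among the 28 pairs of receptors, with a root mean square difference of 0.635 between their centred log2 CPM values, and Ccr6 and Cxcr3 the least alike (5.23). Among 9223 other named genes with a mean of at least 5 CPM, the nearest to Cxcr6 were Ctsb, a lysosomal protease (0.204), and Acaa2, an enzyme of fatty acid oxidation (0.204). The nearest to Cxcr3 was Gimap4 (0.314), a lymphocyte GTPase, and then Acoxl (0.492). Phgdh, the first enzyme of serine synthesis, was nearest to Ccr9 (0.482), before Abi3 (0.525). Cxcr5 lay nearest to Npnt (0.712) and Hmgn3 (0.761), and Cxcr4 to Sdhaf1 (0.716) and Maff (0.794). For Ccr8 the nearest were Deptor (1.08), an inhibitor of mTOR, and Nmur1 (1.22), the neuromedin U receptor of ILC2. Ramp1 (1.24) and Aldh2 (1.30) were nearest to Ccr7, and Foxs1 (1.34) and BC018473 (1.88) to Ccr6. These distances describe libraries that share populations and depth, and a small distance also reflects a gene that varies little.

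Of the genes for the ligands of these receptors, 8 of 18 entries were tested and edgeR's test called 0 in each population, while DESeq2 called 2 in NKp46, 1 each in ILC1 and CCR6 and 0 in DN, and limma voom 1 each in ILC1 and DN. At an unadjusted p under 0.05, 4 were below it in ILC1 (Ccl25, Cxcl10, Cxcl11 and Cxcl12). NKp46 had 2 such ligands (Cxcl10 and Cxcl12), CCR6 had 2 (Ccl1 and Ccl8) and DN had 1 (Cxcl12). The most abundant was Cxcl10, a CXCR3 ligand, at 43.3 CPM in DKO NKp46 against 19.6 CPM in WT NKp46 (log2 fold change 1.14 ± 0.34, adjusted p = 0.0636). Ccl25, the CCR9 ligand, was 4.49 to 9.03 CPM on average in DKO groups and 6.71 to 11.4 CPM in WT groups. Ccl20 averaged at most 0.204 CPM and Cxcl13 at most 0.0711 CPM in any group. The 10 entries that were not tested include all copies of Ccl19 and Ccl21, near-identical genes whose reads can be split.

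Of 12 other chemokine receptors tested, 1 was lower in DKO DN, beside 1.34% of all genes, and 1 higher in DKO CCR6, beside 1.93% of all genes. Ccr2, the monocyte and lymphocyte receptor of CCL2, had 67.0 ± 13.0 CPM in DKO DN against 137 ± 12.1 CPM in WT DN (SD, n = 3 each; log2 fold change -1.03 ± 0.18, adjusted p = 0.00118). The T cell markers that were lower in DKO DN, 7 of 9, moved with it, and their part was not tested. Ccrl2, a chemerin-binding receptor that does not signal, had 391 ± 64.6 CPM in DKO CCR6 against 207 ± 38.9 CPM in WT CCR6 (0.92 ± 0.20, adjusted p = 0.00604). Ccrl2 was lost without WT CCR6 library 3 (adjusted p = 0.0575). Neither was called in another population. In ILC1 and in NKp46, edgeR, DESeq2 and limma voom each called 0 of the 12, and 2 in each population had an unadjusted p under 0.05.

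Of 13 homing and egress genes, 4 were higher and 1 lower in DKO CCR6 cells, beside 1.93% and 2.04% of all genes. S1pr4, a receptor for sphingosine 1-phosphate, had 92.9 ± 4.74 CPM in DKO CCR6 against 49.0 ± 1.90 CPM in WT CCR6 (log2 fold change 0.92 ± 0.18, adjusted p = 0.00285). Itgal, the alpha chain of the integrin LFA-1, had 519.6 ± 30.4 CPM in DKO CCR6 against 276 ± 20.7 CPM in WT CCR6 (0.91 ± 0.18, adjusted p = 0.00296). Itgb7, the beta chain of the gut-homing integrins, was higher by 0.46 ± 0.12 (adjusted p = 0.0256), and Klf2, a transcription factor of quiescence and egress, by 1.34 ± 0.34 (adjusted p = 0.0253). Gpr18, a receptor of intestinal lymphocytes, was lower (-1.36 ± 0.35, adjusted p = 0.0252). Leaving out any 1 of 5 CCR6 libraries ended the Klf2 call (DKO library 1, 2 or 3, WT library 2 or 3) and any 1 of 5 the Gpr18 call (DKO 1 or 2, WT 1, 2 or 3). The Itgb7 call was lost without DKO CCR6 library 1 or 2 or WT CCR6 library 2 or 3, and adjusted p in these fits was at most 0.199.

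In NKp46, 2 of the 13 were higher and 1 lower in DKO, beside 1.99% and 2.17% of all genes. Itgae, the alpha chain of the integrin that binds epithelial E-cadherin, had 7.99 ± 3.79 CPM in DKO NKp46 against 0.758 ± 0.608 CPM in WT NKp46 (3.36 ± 0.67, adjusted p = 0.00386; 2.87 to 4.096 with 1 library left out). Klf2 had 35.4 ± 2.55 CPM in DKO NKp46 against 12.2 ± 5.12 CPM in WT NKp46 (1.54 ± 0.35, adjusted p = 0.0111), a call lost without WT NKp46 library 3 (0.0762). Itga4, which pairs with Itgb7 for entry into the gut, had 25.4 ± 6.59 CPM in DKO NKp46 against 51.5 ± 10.6 CPM in WT NKp46 (-1.02 ± 0.19, adjusted p = 0.0017). In ILC1, Gpr183, a receptor for oxysterols that places ILCs in lymphoid tissue, was higher in DKO (0.73 ± 0.12, adjusted p = 0.00182) and Itga4 lower (-0.81 ± 0.19, adjusted p = 0.0337). Neither Gpr183 (adjusted p = 0.461) nor Itga4 (0.792) was called in the fit of ILC1 alone. Itga4 was also lost with limma voom (0.195), no filter (0.0733) and total counts (0.0522), and so held in 3 of 7 alternatives. It held in 10 of 24 fits without 1 library (up to 0.158). Without WT ILC1 library 2 both were called. In DN, edgeR called 0 of 13 with 5 at an unadjusted p under 0.05, while DESeq2 called 3 and limma voom 4. Over all genes in DN, edgeR called 602, DESeq2 1050 and limma voom 1076.

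Of 18 genes that couple or desensitize these receptors, 3 were called in CCR6 (3.97% of all genes), 2 in DN (2.83%) and 2 in NKp46 (4.16%). Arrb1, a beta-arrestin that uncouples activated receptors from G proteins, had 293 ± 30.9 CPM in DKO CCR6 against 99.6 ± 15.0 CPM in WT CCR6 (log2 fold change 1.56 ± 0.21, adjusted p = 3.85e-05). In DN it had 244 ± 41.9 CPM in DKO against 86.1 ± 9.55 CPM in WT (1.51 ± 0.21, adjusted p = 8.68e-05). In CCR6, Arrb2 was also higher (0.61 ± 0.14, adjusted p = 0.0129), and Rgs1, which turns off G protein signals, was lower (-0.85 ± 0.19, adjusted p = 0.00826). Arrb2 was lost without DKO CCR6 library 1 or 2 or WT CCR6 library 2 or 3 (at most 0.132). In DN, Gng2, a G protein gamma subunit, was higher (0.61 ± 0.14, adjusted p = 0.013) and lost without DKO DN library 1 or 2 or WT DN library 1 or 3 (at most 0.11). In NKp46, Rgs2 was higher (0.59 ± 0.16, adjusted p = 0.0372) and Cd69, which opposes egress through S1PR1, was lower (-0.67 ± 0.19, adjusted p = 0.0452). These held in 11 and in 5 of the 24 fits without 1 library, with an adjusted p of up to 0.17 and 0.217 in the rest. In ILC1, edgeR, DESeq2 and limma voom each called 0 of the 18, and 3 had an unadjusted p under 0.05.

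**Figure D3:**
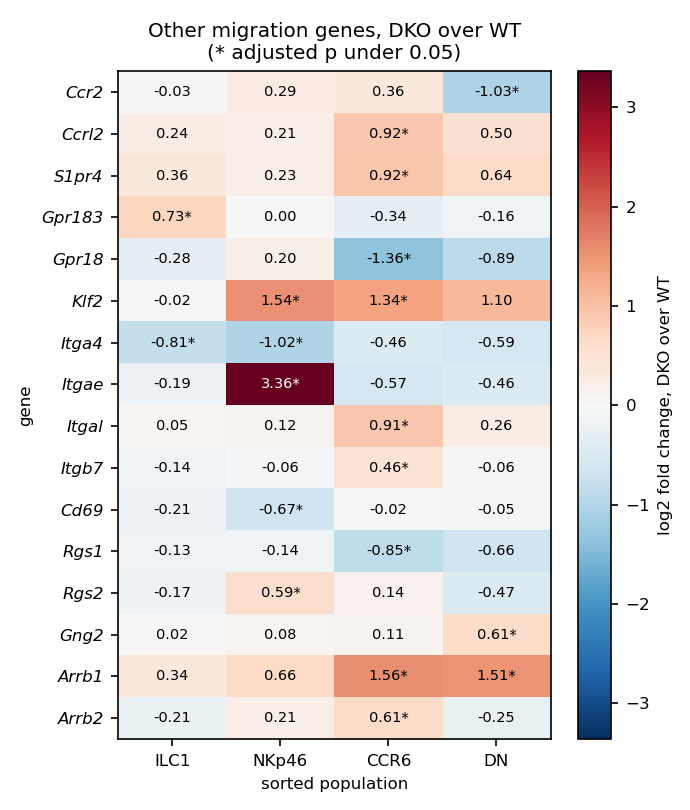
Log2 fold change, DKO over WT, in each population for the 16 genes of the 4 lists (ligands, other chemokine receptors, homing and egress, coupling) that were called in at least 1 population, an asterisk marking an adjusted p under 0.05. Red is higher and blue lower in DKO. Itgae in NKp46 (3.36) is the strongest red, and Arrb1 is red in CCR6 (1.56) and DN (1.51).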

How the data were processed

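Bulk RNA-seq was measured in 24 libraries of sorted lamina propria cells, 3 in each of 8 groups. Per the labels' protocols, a SMARTer kit for low input turned 10 ng of RNA (integrity number above 8) into libraries with 12 to 15 cycles of PCR. No molecular identifiers are named, so counting error is understated. What the authors deposited is a table of raw read counts, whole numbers for each Ensembl gene, judged from the values. Per the submitters' processing notes, the build was mm10 and the tools included R 4.1, DESeq2, Salmon 1.5.2, STAR 2.7.9a, featureCounts 2.0.3, bcl2fastq and Subread. The sources used here do not say which of them made the table, or its strand setting, annotation or treatment of multiply mapped reads. The table held 55774 rows, of which 455 shared 168 IDs with equal counts, so 55487 genes were kept, and 0 columns of samples were left unused. One title writes the population name a letter shorter than its description does, and both were read as NKp46. No replicate pair came within counting noise (chi-square per degree of freedom at least 32.4).

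Counts were scaled with TMM factors, filtered by group and fitted with edgeR 4.0.16 (R 4.3.3) to all 24 libraries with 1 mean per group. The fit had 16 residual degrees of freedom, and the common biological coefficient of variation was 0.573. The 95% intervals use these 16 alone. The quasi-likelihood test borrows further degrees of freedom across genes, so the intervals are wider than its p-values imply. P-values were adjusted over all 21286 genes by the Benjamini-Hochberg method, and a gene was called under 0.05. Standard errors come from the fold change and its F statistic. Levels are CPM with TMM factors, as mean ± SD of 3 libraries, and RPKM uses the joined exon length in GENCODE release M21, which also gave coordinates on GRCm38. Start-site windows are RefSeq's. Pattern likeness is the root mean square difference of centred log2 CPM over libraries. Scripts were tested on simulated data. Alternatives were DESeq2 size factors, total counts, no filter, DESeq2 1.42.0, limma 3.58.1 voom, replicate blocks, fits of the compared groups alone and each library left out. The rule for named genes took the 8 receptors, up to 6 genes of each of 4 lists per genotype comparison by adjusted p, and the 2 nearest patterns per receptor. Members and lists were chosen with earlier results of these data known. Results of some marker genes are not reported here.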

Additional observations from a re-analysis of the deposited data

Results flagged for a closer look

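The DKO effect differed between populations for 2 of the receptors by a test of the difference itself. For Ccr7 the DKO effect in ILC1 minus that in NKp46 was -5.26 on the log2 scale. It held in 4 of 24 fits without 1 library and was lost with limma voom, with no filter and with both replicate blocks, and the joint test for Ccr7 missed the threshold (adjusted p = 0.0618). For Ccr9 the joint test over the 4 populations gave an adjusted p of 0.00596, and the DKO effect in CCR6 was 1.61 above that in NKp46 and 1.69 above that in DN. Among the other migration genes, the joint test was passed by Gpr183 (adjusted p = 0.00593), Ccr2 (adjusted p = 0.0103), Arrb1 (adjusted p = 0.0443) and Itgae (adjusted p = 0.0469), all by edgeR's quasi-likelihood test.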

How the results depend on the processing

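In CCR6, where 1 receptor was called different between DKO and WT, limma voom called 3, a fit of the compared groups alone 4, and fits without 1 library 0 to 2. In DN, with 1 called, no filter, DESeq2, limma voom and the replicate block each called 2, the compared groups alone 3, and fits without 1 library 1 to 2. The joint test called 1 receptor, against 2 with no filter, 3 with DESeq2, 2 with either replicate block and 1 to 2 without 1 library. Fits of the compared groups alone called 1 receptor for WT ILC1 against NKp46 (3 in the shared fit), 3 against CCR6 (5) and 2 against DN (5). Without 1 library these counts were 2 to 4, 4 to 5 and 2 to 5. Over all genes, the compared groups alone called 11 genes in ILC1 (225 in the shared fit), 989 in NKp46 (885), 1723 in CCR6 (846) and 1330 in DN (602). DESeq2 called 778, 1719, 1357 and 1050 genes in the same order, and limma voom 166, 937, 1720 and 1076. The cause of these shifts was not tested. Of 1797 recomputed values of 57 single-gene calls, 1627 kept direction and call, 170 lost the call and 0 reversed. Scaling by total counts moved the median of all genes in WT ILC1 over WT CCR6 to -0.13, against -0.02 with TMM factors. The sources used here do not say whether replicate numbers pair libraries. Same-numbered DKO and WT libraries deviated together with correlations of -0.0112 to 0.0533 over 12 pairs. For same-numbered populations of 1 genotype the correlations were -0.0265 to 0.0774 over 36 pairs (median 0.0368, against -0.0175 for unlike numbers). Although 0 pairs passed 0.1, these values do not settle whether same-numbered libraries share a source. With the replicate block Cd69 in NKp46 (adjusted p = 0.0513) and the Ccr7 difference between ILC1 and NKp46 (0.0553 and 0.0949) lost their calls, while Cxcr4 in DN (0.0173) and its joint test (0.0294 and 0.0177) gained them. WT ILC1 library 2 had 0 counts of Ccr7, Ccr8 and Cxcr5, and the cause was not tested.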
